A study of Mus musculus with 4 samples.

Results

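Methylated regions over internal exons were examined in islets of 8-week-old mice with and without Raptor, the subunit of mTORC1 that brings substrates to the kinase. Sheared islet DNA was immunoprecipitated for methylated cytosine and sequenced (MeDIP-seq), and the authors called peaks of tags in each library. WT mice carried the Raptor lox/lox alleles without Cre, and βRapKO mice carried Raptor lox/lox with RipCre, in which the rat insulin promoter drives Cre in beta cells. The labels give the C57BL/6 strain background for both genotypes, while by the study's methods the RIP-Cre parents were of a mixed background that was C57BL/6J in part only. Each genotype had 2 libraries, and the WT mice were littermates. Whole islets were used, so each library also held DNA of islet cells other than beta cells, and no library carried Cre without the floxed alleles. Peaks of the 4 libraries that overlapped by at least 1 bp on chromosomes 1 to 19 were joined into 180857 regions. A region was counted as an exon region if it overlapped an exon of a protein-coding gene. It was left out if it reached the promoter window (1000 bp upstream to 500 bp downstream of a gene start) or came within 500 bp of a gene end. First and last exons could therefore take part beyond these windows. This left 31507 exon regions over 12026 of 20807 protein-coding genes. For comparison, 55410 regions lay inside introns only. Values of a genotype are given in the order of its replicates 1 and 2, and those of all libraries with WT first.

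In mammalian genomes most CpG sites are methylated, except those in CpG islands, which often lie at promoters. Exons in the body of a gene tend to hold more CpG sites than introns, and they are commonly methylated in genes that are transcribed. The antibody used in MeDIP binds several methylated sites on 1 fragment best, so that tag numbers depend on how many CpG sites a fragment holds as well as on how many of them are methylated.

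Stretches of 200 bp with the most CpG sites are shown for 7 exon regions, with CpG sites in capitals, because many of the results turn on CpG density. All are from GRCm38 (mm10), on the strand of the gene and 5′ to 3′. Spen, a transcriptional regulator that binds RNA, and Zcchc4, which methylates ribosomal RNA, had peaks in the WT libraries only, and their stretches held 19 and 4 CpG sites. Celsr1 is an atypical cadherin of planar cell polarity, Lrp1 an endocytic receptor and Ttn the giant spring protein of muscle, and their stretches held 17, 15 and 12 sites. Slc7a4, of the family of cationic amino acid transporters, and Patj, a scaffold protein of epithelial polarity, are among the regions whose called peaks differed in width between genotypes. Their stretches held 10 sites each.
Spen, chr4:141478816-141479015: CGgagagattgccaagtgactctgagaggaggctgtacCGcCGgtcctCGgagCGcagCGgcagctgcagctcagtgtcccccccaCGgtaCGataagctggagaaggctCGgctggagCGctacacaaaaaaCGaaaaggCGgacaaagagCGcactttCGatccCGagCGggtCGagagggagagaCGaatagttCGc
Celsr1, chr15:86031238-86031437: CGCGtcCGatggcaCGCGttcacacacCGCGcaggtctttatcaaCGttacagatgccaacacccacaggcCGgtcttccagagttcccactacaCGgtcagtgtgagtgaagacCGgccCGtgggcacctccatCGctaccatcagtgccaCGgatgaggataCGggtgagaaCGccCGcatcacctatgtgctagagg
Lrp1, chr10:127553362-127553561: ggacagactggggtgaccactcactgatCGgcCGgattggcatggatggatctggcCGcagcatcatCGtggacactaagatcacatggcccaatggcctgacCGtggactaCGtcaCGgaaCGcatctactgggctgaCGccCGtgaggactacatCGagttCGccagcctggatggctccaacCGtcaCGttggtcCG
Ttn, chr2:76712104-76712303: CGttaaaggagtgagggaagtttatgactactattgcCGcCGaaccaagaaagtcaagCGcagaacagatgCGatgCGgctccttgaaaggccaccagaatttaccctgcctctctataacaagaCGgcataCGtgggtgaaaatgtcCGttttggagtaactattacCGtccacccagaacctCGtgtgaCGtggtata
Slc7a4, chr16:17575342-17575541: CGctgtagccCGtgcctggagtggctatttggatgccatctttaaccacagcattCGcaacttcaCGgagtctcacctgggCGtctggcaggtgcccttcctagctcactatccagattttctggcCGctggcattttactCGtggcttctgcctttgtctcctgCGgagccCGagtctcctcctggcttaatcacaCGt
Patj, chr4:98568936-98569135: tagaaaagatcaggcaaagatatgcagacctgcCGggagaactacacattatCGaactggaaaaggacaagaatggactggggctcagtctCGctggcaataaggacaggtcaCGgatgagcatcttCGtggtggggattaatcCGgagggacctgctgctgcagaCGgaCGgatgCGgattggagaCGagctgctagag
Zcchc4, chr5:52806861-52807060: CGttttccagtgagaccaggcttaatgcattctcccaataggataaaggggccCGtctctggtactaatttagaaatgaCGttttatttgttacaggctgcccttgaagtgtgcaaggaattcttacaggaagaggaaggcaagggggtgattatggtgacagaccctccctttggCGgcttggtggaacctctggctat
The stretches of Spen, Celsr1, Ttn and Slc7a4 were coding throughout. The others were coding over 195 bp in Lrp1, 197 bp in Patj and 104 bp in Zcchc4.

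The libraries had 25585533 to 31330751 tags after removal of duplicates, and 5.34% to 6.97% of these lay in exon regions. In WT, 21685 and 26586 exon regions had a peak, and in βRapKO 20624 and 21423. WT replicate 2, the deepest library, covered the most regions, but WT replicate 1, with the fewest tags, covered more than either βRapKO library. The part of depth was not tested. WT replicate 2 also had the narrowest peaks, with a median of 991 bp against 1117, 1154 and 1216 bp in WT replicate 1 and βRapKO replicates 1 and 2. Log2 tag levels over the exon regions correlated at 0.897 between the WT libraries, at 0.887 between the βRapKO libraries and at 0.877 to 0.895 across genotypes. These are correlations across regions, which are not independent replicates. Of the islet markers Ins1, Ins2, Iapp, Gcg, Sst and Ppy, Gcg alone held exon regions (2). The acinar genes Cela1 and Cpa1 and the duct gene Krt19 held 1 each and Prss2 held none, and none of these regions had a peak in all 4 libraries. MeDIP-seq measures no RNA, so the cell types in the islet preparations could not be checked from these genes.

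Exon regions had a median width of 1246 bp, of which a median of 22.4% was exonic. Most (73.3%) lay over a single exon, 17.4% over 2, 8.18% over 3 to 5 and 1.14% over 6 or more, and 90.4% overlapped coding sequence. The exons they overlapped had a median length of 169 bp, against 153 bp for all exons of protein-coding genes, so a typical region consisted of a short exon with its flanking introns. Exon regions sat late in genes, with the median region at 0.661 of the gene's length from its start, whereas the median intron region sat at 0.454. In the order of exons the difference was smaller, with 34.3% of the exons covered and 30.2% of all exons outside the windows in the third of 3 equal parts of the exon order. CpG sites were denser in exon regions than in intron regions (medians 1.81 and 1.45 per 100 bp), the GC content was higher (48.0% and 45.4%) and repeats took a smaller share (14.1% and 22.6%). Within the exon regions the exonic bases held 2.84 CpG sites per 100 bp and the other bases 1.52.

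The summits of the peaks lay over the exons more often than the exonic share of the peaks gives. The selection asks only that a region touch an exon, not where its summit lies. In WT, 56.9% and 58.7% of summits were over an exon, while 34.0% and 34.9% of the bases under those peaks were exonic. In βRapKO, 55.6% and 56.1% of summits were over an exon, and 33.6% and 33.3% of bases were exonic. The ratio of the shares was 1.68, 1.68, 1.66 and 1.69 in the same order. It was above 1 in 4 of 4 libraries, with a mean log2 ratio of 0.744 ± 0.011 (SD, n = 4; p = 0.125 by a two-sided exact sign-flip permutation test, the lowest for 4 libraries). Mean log2 ratios were 0.747 ± 0.0025 in WT and 0.741 ± 0.018 in βRapKO (SD, n = 2 each; two-sided exact permutation test, p = 1). The genotypes differed by less than the SD within βRapKO, but by more than that within WT. Each peak was also divided into 10 bins of equal width. In WT replicate 1, 24.3% of the bases were exonic in bin 1 and 24.4% in bin 10, against 41.1% in bin 5. The other 3 libraries followed the same course, from 23.8% to 24.5% in the outer bins to between 40% and 42.6% in bins 5 and 6.

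**Figure D1:**
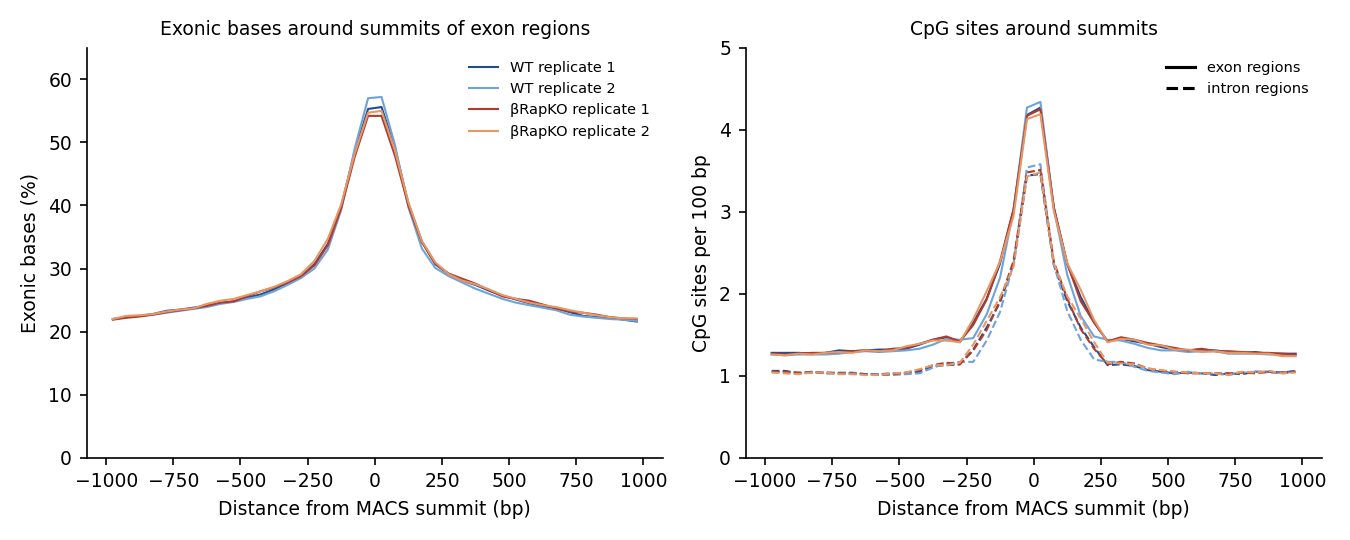
Share of exonic bases (%, left) and CpG sites per 100 bp (right) against distance from the MACS summit (bp), in bins of 50 bp for each of the 4 libraries. Solid lines are exon regions and dashed lines intron regions. In WT replicate 1, exonic bases rise from 22.0% near 1000 bp to 55.6% at the summit and CpG sites from 1.28 to 4.27 per 100 bp, and the 4 libraries run close together.

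CpG sites were concentrated at the summits in the same way. In the 50 bp downstream of the summit, exon regions held 4.27 and 4.34 CpG sites per 100 bp in WT and 4.25 and 4.19 in βRapKO. Intron regions rose to 3.46, 3.58, 3.51 and 3.48 sites at their summits in the same order, from about 1.05 near 1000 bp. Both kinds of region therefore had their summits at local clusters of CpG sites, and the clusters were denser in exon regions in all 4 libraries.

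Coding exons were then taken without reference to the peaks, as all 114670 coding exons of at least 100 bp outside the promoter and gene end windows. The midpoint of an exon lay in a peak for 19.7% and 23.1% of them in WT and for 18.7% and 20.2% in βRapKO. This share rose steeply with the CpG density of the exon. In WT replicate 1 it was 3.46% at under 1 CpG site per 100 bp, 16.1% at 2 to 3 sites and 53.6% at 6 to 8. It then dropped to 23.1% at 8 sites or more. Each of the other libraries followed the same course, with 59.1%, 48.5% and 52.1% at 6 to 8 sites and 25.3%, 20.2% and 22.9% at 8 or more in WT replicate 2 and βRapKO replicates 1 and 2. From 4 to 6 sites upward the βRapKO libraries had smaller shares than either WT library, but βRapKO replicate 2 and WT replicate 1 lay close together (42.5% and 42.7% at 4 to 6 sites, 22.9% and 23.1% at 8 or more). In 70.8% of the coding exons no library had a peak, and in 12.7% all 4 had one.

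**Figure D2:**
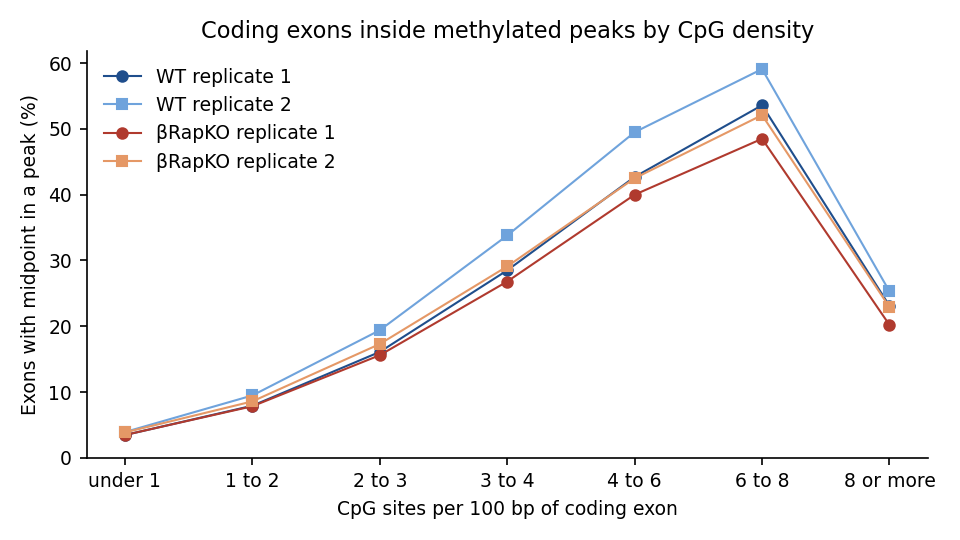
Share of coding exons of at least 100 bp whose midpoint lies in a peak (%), against CpG sites per 100 bp of exon, for each of the 4 libraries. The share rises from below 4% at under 1 site to between 48.5% and 59.1% at 6 to 8 sites and falls to 20.2% to 25.3% at 8 or more.

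The position of CpG sites in the reading frame was compared between coding sequence in exon regions and coding sequence of the same 11407 genes outside all regions. Coding sequence in exon regions held 3.59 sites per 100 bp and that outside held 2.75. Sites with the C at the first base of a codon, which are arginine codons, made up 35.2% of the sites inside and 33.9% outside. The C was at the second base in 24.0% and 26.5%, and at the third base, where the site spans 2 codons, in 40.8% and 39.6%. Densities were higher inside at all 3 codon bases, with 1.26 against 0.935 sites per 100 bp at the first, 0.861 against 0.729 at the second and 1.47 against 1.09 at the third.

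Tag levels were compared on the 14615 exon regions at which every library had a peak, 46.4% of the exon regions, a share that was 33.5% for intron regions. A count is the sum of tags in the peaks that a library had in the region, so it also moves with the width of those peaks. Where a library had no peak, no count exists. Counts were scaled to CPM by the tags of the library left after removal of duplicates. The median exon region stood at 2.62 and 2.65 CPM in WT and at 2.36 and 2.57 CPM in βRapKO. The genotypes did not overlap, and βRapKO replicate 1 was the lowest. Median log2 CPM was 1.4 ± 0.012 in WT and 1.30 ± 0.087 in βRapKO (SD, n = 2 each; p = 0.333 by a two-sided exact permutation test, which 2 libraries against 2 cannot go below). Per kb of peak, the medians were 2.10 and 2.24 in WT and 1.87 and 1.91 in βRapKO.

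The levels of exon and intron regions were set against each other within each library, which removes the library size. Median log2 CPM of exon regions exceeded that of intron regions by 0.259 and 0.288 in WT and by 0.202 and 0.252 in βRapKO. Exon regions were above intron regions in 4 of 4 libraries (mean 0.250 ± 0.036, SD, n = 4; p = 0.125 by a two-sided exact sign-flip permutation test, the lowest for 4 libraries). The mean excess was 0.273 ± 0.020 in WT and 0.227 ± 0.035 in βRapKO (SD, n = 2 each), a βRapKO minus WT difference of −0.0466 (two-sided exact permutation test, p = 0.333). The genotypes did not overlap, but the SD within βRapKO was close to the size of the difference.

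CpG density and GC content moved with this excess. Within bins of GC content of 5 percentage points, the excess was 0.152 and 0.156 in WT and 0.118 and 0.133 in βRapKO. Within bins of CpG density it shrank to 0.026 and 0.052 in WT and −0.0053 and 0.029 in βRapKO, and the genotypes overlapped. Per kb of peak, exon regions exceeded intron regions by 0.0935, 0.123, 0.0696 and 0.0806 in the 4 libraries in the same order. Within bins of CpG density these values became −0.0065, 0.017, −0.030 and −0.016, so that exon regions were no longer above intron regions in 3 of 4 libraries. The comparisons within bins were chosen after the data had been seen.

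**Figure D3:**
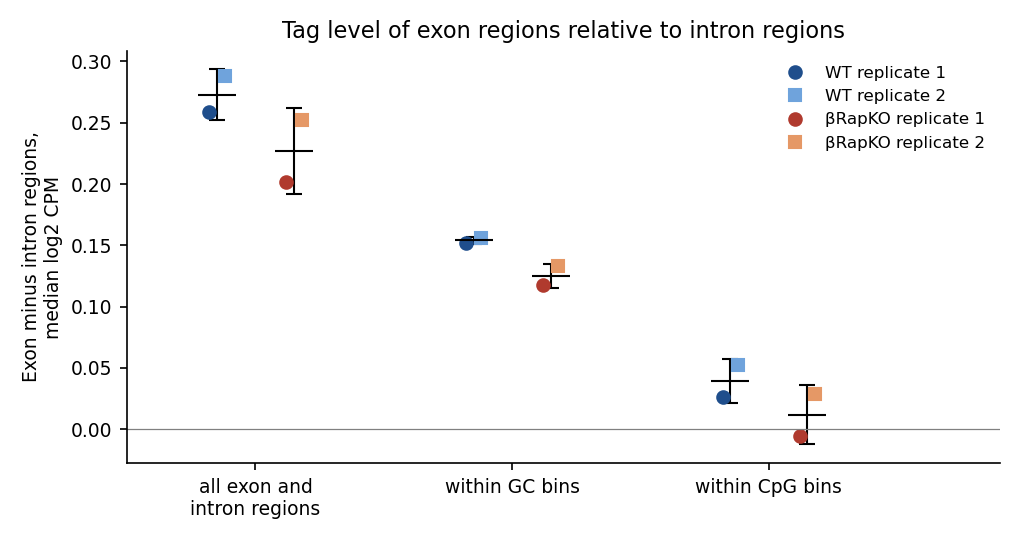
Median log2 CPM of exon regions minus that of intron regions in each library, over all regions with a peak in all 4 libraries, within bins of GC content and within bins of CpG density. Points are libraries, horizontal bars the means of the 2 libraries of a genotype and error bars their SD. The excess falls from between 0.202 and 0.288 to between −0.0053 and 0.052 within CpG bins.

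At single exon regions, the ratio of mean CPM in βRapKO to WT had a median of −0.098 on the log2 scale, against −0.049 in intron regions and −0.061 over the whole set of 72519 regions tested. The ratio was below 1 at 66.5% of exon regions, 58.4% of intron regions and 60.8% of all regions. No exon region passed an adjusted p of 0.05 with a 1.5-fold difference in the quasi-likelihood test of edgeR, adjusted over all regions by the Benjamini-Hochberg procedure. This was also so over all regions (0%), and the smallest adjusted p of an exon region was 0.38. At an unadjusted p under 0.05, 869 exon regions (5.95%) were lower in βRapKO, where 3.93% of all regions were, and 270 (1.85%) were higher, where 1.90% of all were. DESeq2 gave 0 regions past an adjusted p of 0.05. It gave 114 exon regions in each direction at an unadjusted p under 0.05, where 941 of all 72519 regions reached it in either direction. Past 1.5-fold there were 388 lower exon regions (2.65%, against 1.80% of all regions) and 177 higher ones (1.21%, against 1.30%). The βRapKO libraries lay below the WT libraries without overlap at 4431 exon regions (30.3%, against 25.3% of all) and above them at 1422 (9.73%, against 11.7% of all).

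The sign of the shared shift rested on the library size. When libraries were scaled by their tags inside peaks, the median over exon regions was 0.060, with 193 lower and 661 higher at an unadjusted p under 0.05. With TMM factors 548 were lower and 404 higher, and per kb of peak 2272 were lower and 43 higher. Over all 72519 regions, both directions together, 4362 had an unadjusted p under 0.05 with tags in peaks, 3934 with TMM and 9391 per kb. With 1 library left out, medians were taken over the exon regions with a peak in the other 3 libraries. They were −0.091 and −0.0925 without WT replicates 1 and 2, and −0.0476 and −0.151 without βRapKO replicates 1 and 2.

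The genotype difference moved with GC content. The median log2 ratio of exon regions was −0.019 at a GC content under 40%, −0.073 at 45% to 50%, −0.148 at 50% to 55%, −0.215 at 55% to 60% and −0.314 at 60% or more. In intron regions it also fell, from −0.011 at under 40% to −0.158 at 55% to 60%. Within a bin, the exon minus intron difference was −0.0078 at under 40% and −0.057 at 55% to 60%. The libraries that carried this course were WT replicate 2 and βRapKO replicate 1. From under 40% to 60% or more, the median deviation of exon regions from the mean of the 4 libraries rose from −0.0097 to 0.250 in WT replicate 2 and went from −0.029 to −0.299 in βRapKO replicate 1. In WT replicate 1 it went from 0.045 to 0.080 and in βRapKO replicate 2 from 0.015 to −0.018. At GC contents of 45% to 50% and above, both WT libraries were above both βRapKO libraries, while at 60% or more the libraries of each genotype lay far apart. The part of GC content in the genotype difference was not tested.

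**Figure D4:**
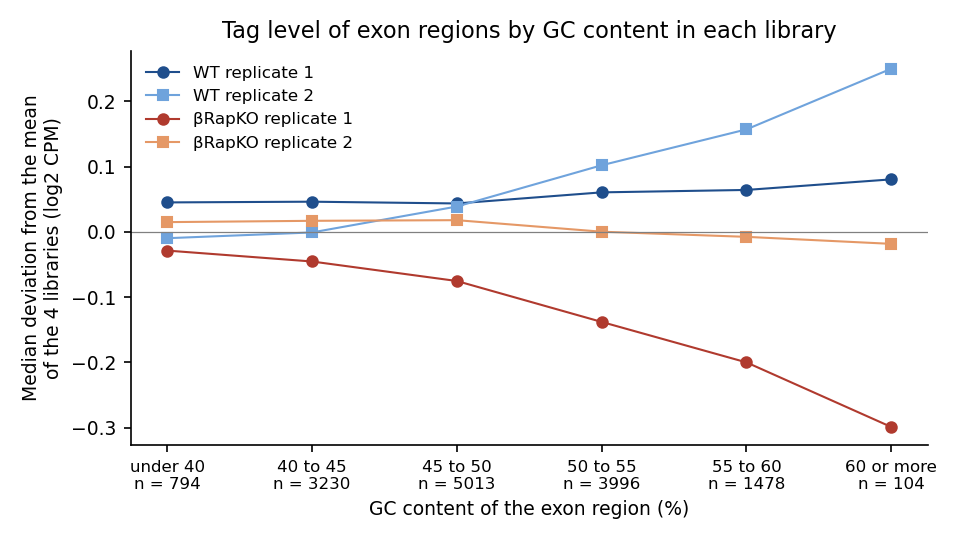
Median deviation of exon regions from the mean of the 4 libraries (log2 CPM) against the GC content of the region (%), for each library, with the number of regions in each bin. WT replicate 2 rises to 0.250 and βRapKO replicate 1 falls to −0.299 at 60% or more, while WT replicate 1 ends at 0.080 and βRapKO replicate 2 at −0.018.

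The exon regions with the smallest p among those past 1.5-fold, with no overlap between the libraries of the genotypes, are described as ranked examples, since none passed the adjusted threshold. The region over exons 2 to 5 of Slc7a4 (chr16:17572981-17576240, which also reaches an exon of P2rx6) had 5.71 and 6.03 CPM in WT and 2.50 and 2.81 in βRapKO. The tag sum was 2.21-fold lower in βRapKO (log2 −1.14, SE 0.16, edgeR adjusted p = 0.38), over narrower peaks, and the log2 ratio per kb of peak was 0.05. Over exons 8 to 10 of Acan, which encodes the cartilage proteoglycan aggrecan (chr7:79092213-79094739), there were 4.03 and 4.79 CPM in WT and 1.85 and 1.61 in βRapKO. These regions were chosen for a lack of overlap, so the distance between the genotypes is a description. The region over exons 6 to 8 of Zscan20, a zinc finger gene (chr4:128584947-128591258), had 17.0 and 12.4 CPM in WT and 6.98 and 6.72 in βRapKO. Over exon 4 of Ifih1, which encodes a sensor of double-stranded RNA, 13.6 and 15 CPM in WT stood against 8.97 and 8.16. The regions over exon 4 of Parm1 and over an exon of Tspan9, a tetraspanin, that is not in its principal transcript had log2 ratios of −1.08 and −1.30.

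In the other direction, the region over exons 11 and 12 of Alg9, a mannosyltransferase of N-glycan synthesis (chr9:50804815-50808123), had 2.23 and 2.04 CPM in WT and 4.86 and 5.42 in βRapKO. The tag sum was 2.41-fold higher in βRapKO (log2 1.27, SE 0.17, edgeR adjusted p = 0.38), over wider peaks, and the log2 ratio per kb of peak was −0.84. Over exon 28 of Patj (chr4:98566429-98569726) there were 2.31 and 2.04 CPM in WT and 4.59 and 5.76 in βRapKO. The βRapKO libraries lay farther apart at Patj than at Alg9. Over exon 5 of E2f3, a transcription factor of the cell cycle, 2.07 and 1.85 CPM in WT stood against 3.90 and 4.63. The regions over Gdap2, Cbr4 and Fubp3 had log2 ratios of 1.21, 1.21 and 1.11.

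In all 12 regions the peaks of the genotype with more tags covered more bases. At Slc7a4 the peaks covered 2960 and 2967 bp in WT and 1285 and 1299 bp in βRapKO. At Alg9 they covered 614 and 745 bp in WT and 2553 and 3294 bp in βRapKO. Per kb of peak the 6 lower regions had log2 ratios between −0.31 and 0.05 and the 6 higher ones between −0.90 and 0.04. The direction turned in Slc7a4 and in 5 of the higher regions, Gdap2 being the exception. The same held more widely. Of the 177 exon regions past 1.5-fold higher, 154 (87.0%) had peaks covering over 1.5-fold more bases in βRapKO, against 5.21% of all exon regions tested, and 0 were 1.5-fold higher per kb. Of the 388 past 1.5-fold lower, 144 (37.1%) had peaks covering over 1.5-fold fewer bases, against 1.47% of all, and 44 were also 1.5-fold lower per kb. Among all 14615 exon regions tested, 10 were 1.5-fold higher per kb and 753 were 1.5-fold lower. Their median log2 ratio per kb was −0.191, so a ratio below 1 per kb was the common case.

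**Figure D5:**
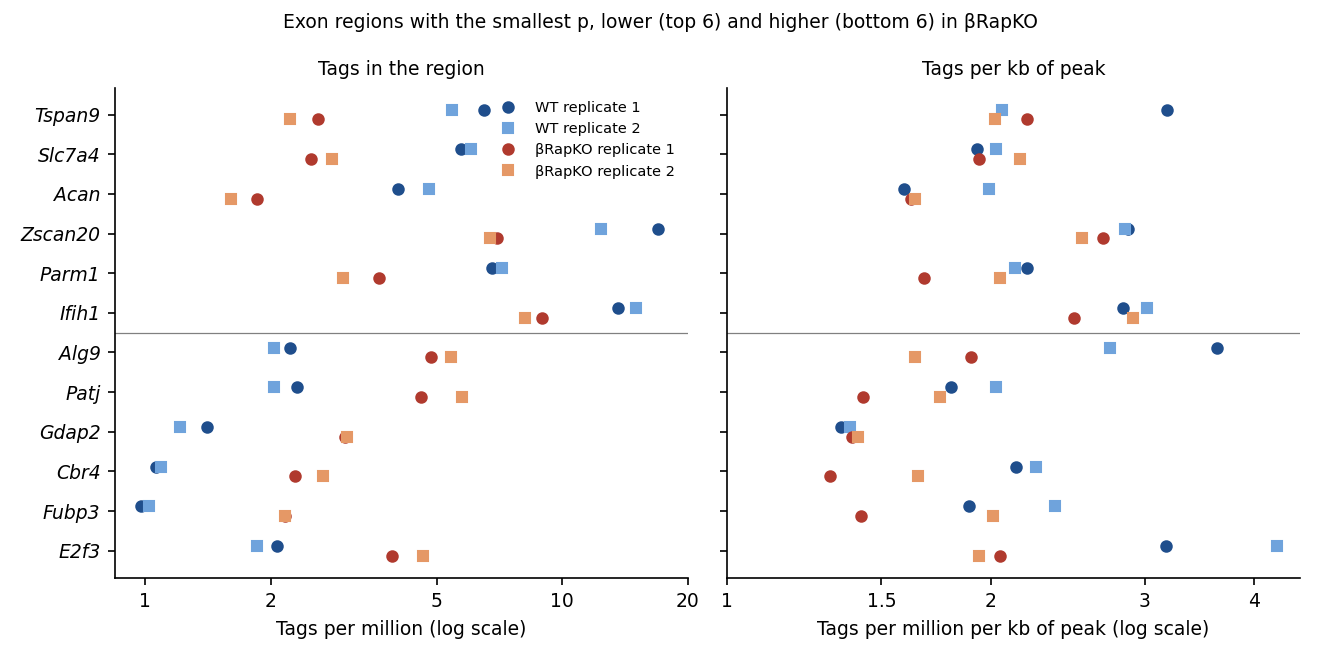
CPM in the region (left) and CPM per kb of peak (right), both on log axes, in each library for the 6 exon regions with the smallest p that were lower in βRapKO (top) and the 6 that were higher (bottom). The genotypes stand apart on the left, and per kb of peak they come together or change order, as in Alg9 and E2f3.

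Some exon regions had a peak in both libraries of 1 genotype only, and more of them in WT. Pairs that cross the genotypes had similar counts. WT replicate 2 shared peaks with βRapKO replicate 2 alone at 1271 exon regions (4.03%) and with βRapKO replicate 1 alone at 1039 (3.3%). For WT replicate 1 these counts were 445 (1.41%) and 358 (1.14%). The pairs that held WT replicate 2, the library with the most peaks, thus all had more regions than those without it. Both WT libraries and neither βRapKO library had a peak at 1320 exon regions (4.19%, the same as the 4.19% of all regions), and the reverse held at 381 (1.21%, against 1.59% of all). With the same number of peaks (113933) taken from every library by score, the counts came to 841 (2.88%) and 675 (2.31%) of 29233 exon regions, where all regions had 2.71% and 2.91%. With every peak used, the ratio of WT-only to βRapKO-only was 3.46 among exon regions and 2.64 among all regions. At equal peak numbers it was smaller among exon regions. Among all regions the order reversed there, with 4496 WT-only and 4836 βRapKO-only. WT-only exon regions had a median width of 1022 bp and a median of 1.48 CPM, and βRapKO-only ones had 1107 bp and 1.44 CPM. These widths were near the median of 1048 bp of exon regions with a peak in any 2 libraries. Where no library lacked a peak, the medians were 1506 bp and 2.56 CPM.

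The WT-only regions with the most tags were wide, but they were picked by tag sum, which grows with peak width. Regions over 4 kb wide numbered 9 of the 1320 WT-only and 5 of the 381 βRapKO-only exon regions. At exon 12 of Spen, a single long exon (chr4:141473945-141479839), WT replicates 1 and 2 had 27.4 and 27.5 CPM, or 700 and 861 tags, over 5895 bp. At exons 16 to 18 of Cit, which encodes a kinase of cytokinesis, they had 21.5 and 22.5 CPM over 5923 bp, and at exons 3 and 4 of Lnx2, a ubiquitin ligase, 14.3 and 14.6 CPM over 5295 bp. Zcchc4 followed with 11.7 and 12 CPM over exons 6 and 7. The βRapKO-only regions with the most tags were as wide. Abcb8, a mitochondrial transporter, had 17.9 and 18.7 CPM over exons 2 to 9 (6130 bp), Tmem94 13.4 and 15.4 CPM over exons 7 to 18 (6348 bp) and Hspg2, the proteoglycan perlecan, 10.8 and 15.3 CPM over exons 65 to 75 (5963 bp). Unkl had 10.7 and 11.4 CPM over exon 2. All 8 regions were 4778 bp wide or wider and had fold enrichments of 3.45 to 5.09. The medians were 6.45 for WT-only, 5.8 for βRapKO-only and 7.8 for the exon regions tested. The peak caller set each peak against the tags in 10000 bp of the same library, a span that these peaks fill in large part. The tags in the libraries without a peak were not analysed here, so these 8 regions cannot be called unmethylated in either genotype.

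The highest tag densities, in CPM per kb of peak, were at the last exon of Pigk, of the enzyme that attaches GPI anchors, with 14.1 and 14.6 in WT and 13.7 and 13.4 in βRapKO. This region (chr3:152785658-152787500) lay wholly in noncoding exon sequence. Fbh1, a DNA helicase gene, had 10.9 and 13.2 in WT and 9.10 and 8.86 in βRapKO over exon 20, and Thada had 10.3, 9.49, 10.5 and 10.5 over exons 2 and 3. Repeats made up 85.5% of the Thada region and 58.4% of that over exon 5 of Chl1, a neural adhesion gene, but 6.78% of that of Pigk. Tmem267 and Nudt21 completed the 6, with densities of 8.07 to 9.91 and 5.56 to 11.1. The densities of the genotypes overlapped at Chl1 and were higher in βRapKO without overlap at Thada, while at Pigk, Fbh1, Tmem267 and Nudt21 the βRapKO densities were the lower without overlap. Lower densities in βRapKO were common, with a median log2 ratio per kb of −0.191 over the exon regions tested and −0.165 over all regions. The share of regions without overlap per kb was not counted.

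Long runs of coding exons joined into single regions. The widest of all exon regions, 10062 bp over exons 48 to 70 of 89 of Lrp1 (chr10:127548144-127558205), held 23 coding exons and 280 CpG sites. Its level varied more between replicates than between genotypes, with 12.8 and 33.1 CPM in WT and 24.9 and 20.3 in βRapKO. The region over exons 17 to 36 of Plxnb2, a semaphorin receptor, had 18.9, 11.3, 17.7 and 12.6 CPM, and that over exons 23 to 41 of Fasn, fatty acid synthase, 10, 18, 13.1 and 15. Over exons 8 to 26 of Dctn1, a dynactin subunit, the levels were 10.6 and 11.6 in WT and 8.93 and 21.9 in βRapKO. In all 4 regions the genotypes overlapped. The gene with the most exon regions was Ttn (42), followed by Csmd2 (33) and Dst (29).

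Exon regions were also counted over gene lists that were chosen with earlier results of these data known. Disallowed genes are kept silent in mature beta cells. Of 20, 19 had exon regions (52), and 27 of these were tested. Of the tested regions, 21 were below and 6 above WT, 3 were lower and 1 higher at an unadjusted p under 0.05, and the median log2 ratio was −0.10. Exon 5 of Hk1, a low-Km hexokinase, had 7.35 and 6.35 CPM in WT and 6.64 and 8.09 in βRapKO, and exon 2 of Mylk, myosin light chain kinase, had 4.53 and 5.62 against 4.28 and 4.66. Both overlapped between genotypes, whereas exon 3 of Pdgfra, a growth factor receptor, did not, with 3.99 and 3.48 in WT and 3.39 and 3.19 in βRapKO. At Pdgfra the nearest libraries of the genotypes were closer together than the replicates of either. Of 37 genes of beta cell identity and insulin secretion, 21 had exon regions (106), with 49 tested, 29 below and 20 above WT, 4 lower and 4 higher at an unadjusted p under 0.05, and a median of −0.093. The transcription factor genes Pdx1, Nkx6-1, Nkx2-2, Neurod1, Mafa, Isl1, Pax6 and Foxa2 held no exon region, while the calcium channel genes Cacna1c, Cacna1a and Cacna1d held 16, 14 and 12. Exon 31 of Cacna1c had 4.06, 3.35, 3.73 and 3.74 CPM in the 4 libraries. Exons 25 to 27 of Cacna1a had 2.74 and 4.02 CPM in WT and 4.76 and 4.52 in βRapKO.

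Of 27 genes of mTORC1 and its regulators, 17 had exon regions (76), with 31 tested, 24 below and 7 above WT, 2 lower and 0 higher at an unadjusted p under 0.05, and a median of −0.15. Rptor, the targeted gene, held 10 exon regions, of which 4 were tested. Its region with the most tags, over the last exon (34 of 34, chr11:119896725-119898208), had 3.13 and 3.64 CPM in WT and 2.94 and 2.91 in βRapKO, both below both. Whether the floxed exon was deleted was not checked with these peaks. Over exons 14 to 16 of Mtor, the kinase itself, WT replicate 1 had no peak and the other libraries had 4.50, 4.04 and 5.28 CPM. Exons 42 and 43 of Depdc5, of the complex that inhibits mTORC1 when amino acids are scarce, had 3.01 and 3.29 CPM in WT and 2.53 and 1.85 in βRapKO.

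All 17 genes of DNA methylation enzymes and readers had exon regions (56), with 31 tested, 21 below and 10 above WT, 0 lower and 1 higher at an unadjusted p under 0.05, and a median of −0.056. Exons 12 and 13 of Tet1, which oxidises methylcytosine, had 6.61, 7.72, 6.74 and 7.40 CPM, exon 11 of Tet2 had 2.66, 3.54, 2.16 and 3.63, and exons 5 and 6 of Dnmt3a, a de novo methyltransferase, had 2.93, 2.87, 2.53 and 3.05. The genotypes overlapped at these 3 genes. Exons 13 to 16 of Dnmt1, the maintenance methyltransferase, had 5.47 and 4.18 CPM in WT and 3.18 and 4.11 in βRapKO. The genotypes did not overlap there, but the gap between 4.18 and 4.11 was far smaller than that between replicates of either genotype. Of the 9 Notch receptors and ligands, 8 had exon regions (29), with 15 tested, 12 below and 3 above WT, none past an unadjusted p of 0.05 (0 in each direction) and a median of −0.20. The region over exons 33 and 34 of Notch2 had 8.60, 8.68, 6.64 and 9.01 CPM. The region over exons 23 to 26 of Notch1 had 5.32 and 5.04 in WT and 2.16 and 4.94 in βRapKO, with βRapKO replicate 1 alone far below the others. Exons 17 to 20 of Notch3 had 4.14 and 5.14 CPM in WT and 3.46 and 3.6 in βRapKO, without overlap.

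The 11 large cadherin genes all had exon regions (94), with 39 tested, 30 below and 9 above WT, 3 lower and 0 higher at an unadjusted p under 0.05, and a median of −0.15. The first exon of Celsr1 (chr15:86029881-86032868), which held the 17 CpG sites printed above, had 18.1 and 19.5 CPM in WT and 15.2 and 16.7 in βRapKO. Exons 61 to 63 of Cdh23, a cadherin of hair cells, had 6.21 and 5.30 CPM against 5.27 and 5.11. Both regions had the βRapKO libraries below the WT libraries by small margins. Among 20 genes of basement membrane and matrix, 19 had exon regions (142), with 60 tested, 43 below and 17 above WT, 4 lower and 1 higher at an unadjusted p under 0.05, and a median of −0.14. Exons 56 to 59 of Fbn2, a fibrillin, had 3.17 and 9.19 CPM in WT and 4.62 and 6.55 in βRapKO, and exons 11 and 12 of Fbn1 had 3.87, 2.30, 3.46 and 3.53. The WT libraries lay farther apart than the genotypes in both. Exon 30 of Col4a2, a collagen of basement membranes, had 3.36 and 3.10 CPM in WT and 2.43 in each βRapKO library, without overlap.

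Of 20 giant cytoskeletal and sarcomere genes, 19 had exon regions (263), with 130 tested, 84 below and 46 above WT, 8 lower and 3 higher at an unadjusted p under 0.05, and a median of −0.063. Exons 304 to 306 of Ttn (chr2:76708831-76715358) had 20.9 and 23.2 CPM in WT and 22.1 and 20.6 in βRapKO, and a region in an exon of Dst, a cytoskeletal linker, outside its principal transcript had 10.8, 11.7, 8.62 and 11.7. Of the nuclear envelope linkers, a region of Syne2 had 8.79 and 8.46 CPM in WT and 6.98 and 4.73 in βRapKO, and exon 77 of Syne1 had 5.43 and 5.17 in WT and 5.78 and 5.55 in βRapKO, without overlap but in opposite directions. The 23 chromatin regulators all had exon regions (124), with 61 tested, 38 below and 23 above WT, 3 lower and 2 higher at an unadjusted p under 0.05, and a median of −0.093. Exon 3 of Kmt2a, a histone methyltransferase, had 5.35, 5.49, 5.17 and 5.72 CPM. Exons 26 to 28 of Smarca4, a chromatin remodelling ATPase, had 7.66 and 7.98 CPM in WT and 5.75 and 7.85 in βRapKO, and the genotypes overlapped at both genes. Exon 20 of Arid1b, a subunit of the same kind of remodelling complex, had 8.91 and 10.2 CPM in WT and 6.91 and 7.71 in βRapKO, without overlap. As the background for each list, the exon regions tested had a median of −0.098, with 66.5% below WT and 5.95% lower and 1.85% higher at an unadjusted p under 0.05. Over all regions tested the median was −0.061, with 60.8% below WT and 3.93% lower and 1.90% higher. The βRapKO libraries lay below the WT libraries without overlap at 30.3% of the exon regions tested and above them at 9.73%. Among all regions tested these shares were 25.3% and 11.7%.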

How the data were processed

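MeDIP-seq peaks of 4 libraries were analysed, 2 WT and 2 βRapKO, grouped by the genotype in the labels. The authors aligned reads of 50 bp to mm10 with Bowtie2 2.2.5 and called peaks per library with MACS without a control, at a p cutoff of 1e-05 with 1 tag per position. The file headers name MACS 1.4.2, and the submitters' processing notes name 0.14.2 and list mm9 beside mm10. The authors' deposited values are a raw count of tags per peak, a fold enrichment over local background, a score made from log10 of p, and the summit position. MACS keeps 1 tag per position, which limits counts where tags are dense.

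Peaks were joined (at least 1 bp), classed with GENCODE M21 and the GRCm38 sequence, in the order promoter, gene end, exon, intron, and their tags summed per library. Regions with peaks in all libraries were tested with edgeR 4.0.16 (R 4.3.3), with tags after duplicate removal as library size and Benjamini-Hochberg adjustment over 72519 regions. A fold-change above 1.5 was counted on mean CPM. Exact permutation tests compared libraries. Nothing in the labels says that libraries came from separate animals, so p-values measure the spread between these libraries. No intervals for single counts are given, since replicates differed by more than counting error (chi-square per exon region 2.53 in WT and 2.82 in βRapKO).

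The regions and gene lists were chosen with earlier results of these data known. Regions named were, at most 1 per gene and part, the 6 with the smallest p in each direction among those past 1.5-fold whose genotypes did not overlap, the 6 densest, the 4 over most coding exons, the 4 with most CPM in 1 genotype only, and per list gene the region with most tags, for up to 5 genes with most regions. Sequences are the 200 bp with most CpG sites, mostly coding and without UTR. Exon numbers follow 1 principal transcript.

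Alternatives were library size from tags in peaks, TMM, DESeq2 1.42.0, tags per kb of peak, at least 50 tags, peaks scoring at least 100, joining by overlap of the shorter peak, the replicate block, coding exons alone, widths of 800 to 1500 bp and leaving out each library. Comparisons within GC and CpG bins and equal peak numbers were added after the data were seen. Bins with fewer than 20 regions of a class were left out. Sex chromosomes were not used here, and some genes that the naming rule allows are not reported here. Python 3.11.15, pandas 2.3.3, NumPy 2.4.6 and bedtools 2.31.1 were used.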

Additional observations from a re-analysis of the deposited data

How the results depend on the processing

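Of 107 comparisons with alternatives, 64 stayed within 1.5-fold (counts) or 1 SD (other values). A further 41 moved beyond that without a change of sign, and 2 changed sign. Counts carry no sign, so a turned balance of lower and higher regions, as with tags in peaks, is not among the 2. No region passed the adjusted threshold in any of the 13 fits. The median log2 ratio of exon regions reversed to 0.0603 with tags in peaks as library size, and it was −0.0359 with TMM factors and −0.191 per kb of peak. Exon regions at an unadjusted p under 0.05, lower and higher, numbered 193 and 661 with tags in peaks, 114 and 114 with DESeq2, 2272 and 43 per kb of peak, and 466 and 111 with peaks scoring at least 100, while TMM gave 548 lower and the minimum of 50 tags 146 higher. Those past 1.5-fold numbered 152 lower and 458 higher with tags in peaks, 753 and 10 per kb, 207 and 76 with at least 50 tags and 88 and 56 with high-scoring peaks, the last 2 over fewer regions. Leaving out each library gave 443 to 1322 lower and 250 to 415 higher at an unadjusted p under 0.05, 583 to 1286 lower and 266 to 495 higher past 1.5-fold, and medians of −0.151 to −0.0476, over regions with a peak in the other 3 libraries, where a lone library was assumed to vary like the other genotype's. The exon minus intron difference ran from −0.0707 to −0.0294, the log2 density difference from 0.0885 to 0.104 and the summit ratio from 0.741 to 0.749 (log2).

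High-scoring peaks left 17480 exon regions, of which 1107 were called in WT only and 190 in βRapKO only, and equal peak numbers gave 841 WT-only and 675 βRapKO-only. The log2 density of exon over intron regions was 0.0417 with at least 50 tags, 0.0273 with high-scoring peaks, 0.0641 within GC bins and reversed to −0.00865 within CpG bins. The summit log2 ratio was 0.757 in regions of 800 to 1500 bp and 1.12 for coding exons alone. Of 108 recomputed ratios of the 12 regions ranked by p, 102 kept their direction. Per kb of peak those of Slc7a4 (0.05), Alg9 (−0.84), Patj (−0.27), Cbr4 (−0.57), Fubp3 (−0.31) and E2f3 (−0.90) reversed. The cause of these changes was not tested.

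With the replicate number as a block, 935 exon regions were lower and 286 higher at an unadjusted p under 0.05, and 0 passed the adjusted threshold. Libraries of the same number deviated together with a correlation of 0.0198 over exon regions (0.0464 over all). This cannot show, with 2 libraries per genotype, whether they share more than the number. No region passed without the block either, so no call could be lost with it. The WT files carry other library numbers than the replicate numbers of the labels, so it is uncertain whether equal numbers mark libraries made together. With 2 libraries per genotype no permutation p below 0.333 could be reached. Counts exist only inside called peaks, and tags elsewhere limit what the absence of a peak can show.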
